A study of Mus musculus with 2 samples.

Results

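A set of 10 genes for G protein-coupled receptors was examined in C2C12 cells, an immortalised mouse myoblast line. They encode the lysophosphatidic acid (LPA) receptors Lpar1, Lpar2, Lpar3, Lpar4 and Lpar6, the sphingosine-1-phosphate (S1P) receptors S1pr1, S1pr2 and S1pr3, the thrombin receptor F2r and the endothelin receptor Ednra. They were chosen by gene symbol, with earlier results of these data known. All of them were found among the 21829 symbols of the deposited expression values. The study compared WT C2C12 cells with cells of genotype Gne KO, in which Cas9 editing had placed an indel in exon 2 of Gne, the gene of the bifunctional enzyme that starts sialic acid synthesis. Both lines were grown without further treatment in DMEM with fetal bovine serum and gentamicin. The methods describe isolation of single clones after electroporation of Cas9 and guide plasmids, so the KO line stands for a clone, and the labels do not say which. There is 1 RNA library for each line, so the values carry no error, and differences between the lines are given without a test. What is particular to the clone cannot be told apart from what followed the editing of Gne. WT cells and KO cells stand below for the libraries with these labels.

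LPA and S1P are small signalling lipids that are carried by serum and made by cells. Each acts through a set of receptors that couple to different G proteins. S1pr1 couples to Gi, S1pr2 mainly to G12/13 and S1pr3 to Gi, Gq and G12/13. F2r is cut by thrombin, which uncovers a tethered ligand in the receptor itself, and Ednra is the receptor that endothelin-1 uses to contract smooth muscle. The receptors that couple to G12/13 act through it on the actin cytoskeleton, and S1P is known to help wake resting muscle stem cells.

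Levels are in FPKM, a count of fragments scaled to transcript length and to sequencing depth, and this unit was inferred from the values. The log2 fold change is log2((KO + 1)/(WT + 1)). The added 1 makes the change of low genes look smaller than it is. A gene was counted as past the filter when its mean over the libraries was at least 1 FPKM, and as changed when it was more than 2-fold higher or lower on this scale. The column totals were 568410 in WT cells and 574144 in KO cells, and the number of reads is not known. The RNA of Gne itself was 6.67 FPKM in WT cells and 7.34 FPKM in KO cells. An indel need not lower the RNA of its gene, so this value does not check the labels, on which every direction below depends.

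The filter kept 8 of the 10 receptors. In KO cells 2 of these, S1pr1 and S1pr3, were more than 2-fold higher, and 0 were more than 2-fold lower. The 10542 genes that met the same filter were beyond 2-fold in 2.84% of cases upward and in 3.43% downward. Of the same 8 receptors 5 had a higher value in KO cells and 3 a lower one, where 50.7% of all genes had a higher value and 49.3% a lower one. The 5 were all 3 S1P receptors, F2r and Lpar1, and the 3 were Lpar2, Lpar4 and Lpar6. The median log2 fold change of the 8 was 0.67, in a range from -0.80 to 2.01, and that of all genes was 0.0061, with an interquartile range from -0.21 to 0.23. Lpar3 and Ednra were below the filter. Because the receptors were chosen with earlier results of these data known, these shares describe the set and do not test it.

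**Figure D1:**
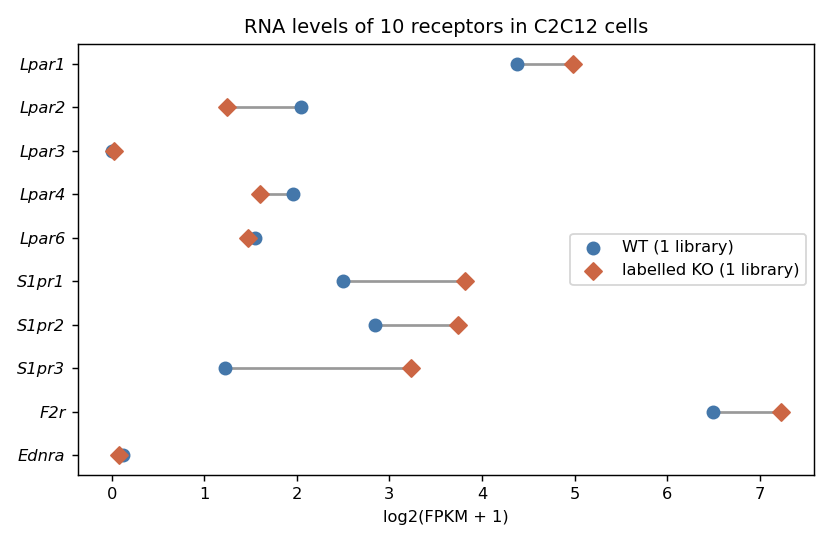
The 10 receptors are listed on the vertical axis and their level is on the horizontal axis as log2(FPKM + 1), with circles for the WT library and diamonds for the KO library, 1 library each. F2r and Lpar1 have the highest levels in both libraries, the 3 S1P receptors lie further right in KO cells, and Lpar3 and Ednra sit at or near 0.

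The order of levels was led by F2r, at 89.2 FPKM in WT cells and 149 FPKM in KO cells. That was a higher value than those of 95.4% of all symbols in the first and 97.4% in the second. Lpar1 followed at 19.7 and 30.7 FPKM. In the WT library the next places were held by S1pr2 at 6.18 FPKM, S1pr1 at 4.67 FPKM, Lpar2 at 3.13 FPKM and Lpar4 at 2.87 FPKM. Lpar6 at 1.93 FPKM and S1pr3 at 1.33 FPKM came after them. In the KO library the 3 S1P receptors stood directly behind Lpar1, and S1pr3 had moved from place 8 to place 5 while Lpar2 had moved from place 5 to place 8. Whether neighbours in either order differ beyond the spread of replicates cannot be said from single libraries.

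Among the S1P receptors, all 3 had a higher value in KO cells. S1pr3 was 1.33 FPKM in WT cells and 8.43 FPKM in KO cells, a ratio of 6.32 and a log2 fold change of 2.01. Only 71 of the 10542 genes past the filter, 0.673%, had a larger log2 fold change. By an estimate of what a single fragment is worth in these values, its levels rest on about 163 fragments in WT cells and 862 in KO cells. S1pr1, the receptor through which S1P holds endothelial barriers and draws lymphocytes out of lymph nodes, was 4.67 and 13.0 FPKM, a ratio of 2.80 and a log2 fold change of 1.31. A larger value was found for 1.70% of the genes. S1pr2 was 6.18 and 12.4 FPKM. Its ratio was 2.00 and its log2 fold change 0.90, so that it fell short of the 2-fold limit on the scale with the pseudocount. With a pseudocount of 5 S1pr1 was at 0.90, short of the limit, and S1pr3 at 1.08, while a minimum mean of 5 FPKM would have left S1pr3 out of the count. S1pr4 was listed at 0 in both libraries and S1pr5 at 0.037 and 0.020 FPKM.

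The summed level of the S1P receptors was 12.2 FPKM in WT cells and 33.9 FPKM in KO cells, a ratio of 2.77. The makeup of this sum differed too. S1pr2 made up 50.6% of it in WT cells and 36.5% in KO cells, while S1pr3 made up 10.9% and 24.9%. The share of S1pr1 was 38.2% and 38.5%. The receptor that couples mainly to G12/13 therefore held the largest share in WT cells, and S1pr1 did so by a small margin in KO cells.

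**Figure D2:**
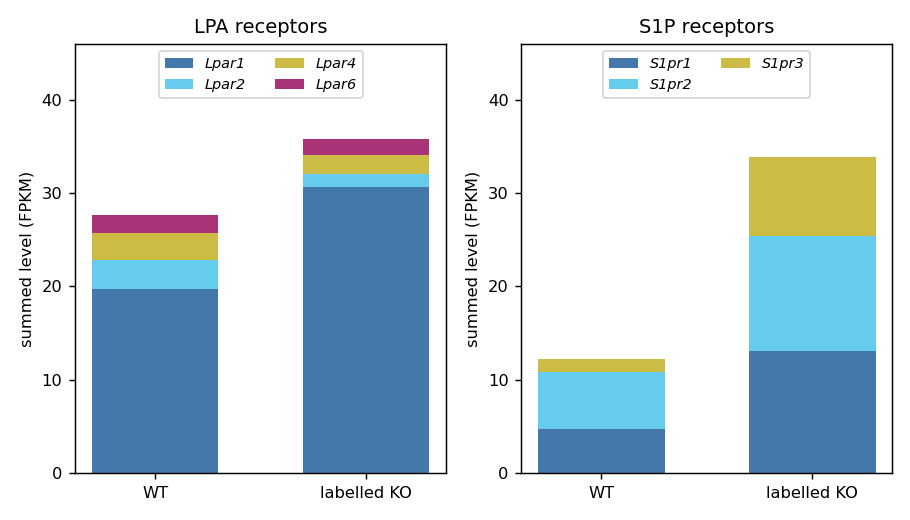
Stacked bars give the summed FPKM of the LPA receptors (left) and the S1P receptors (right) in each library, with a colour for each receptor of at least 1 FPKM in either library. The S1P receptor sum is 12.2 FPKM in WT cells and 33.9 FPKM in KO cells, and the LPA receptor sum is 27.7 and 35.9 FPKM, most of it Lpar1.

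The LPA receptors did not share a direction. Lpar1, the most widely expressed of them and a receptor of the EDG family like the S1P receptors, had a ratio of 1.56 and a log2 fold change of 0.61. Lpar2, of the same family, was 3.13 FPKM in WT cells and 1.37 FPKM in KO cells. Its log2 fold change was -0.80, and 4.97% of all genes had a lower one. With a pseudocount of 0.1 it was -1.13, past the 2-fold limit, and with a pseudocount of 5 it was -0.35. Lpar4 and Lpar6 belong to a separate branch of receptors that resembles the P2Y nucleotide receptors. Lpar4 was 2.87 and 2.03 FPKM, a log2 fold change of -0.35. Lpar6 was 1.93 and 1.78 FPKM, a log2 fold change of -0.074, which lies inside the interquartile range of all genes. Neither of them passed the 2-fold limit.

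Lpar3 was listed at 0 in WT cells and at 0.020 FPKM in KO cells. Multiplied by the length of its transcript, the latter comes to about 1.11 fragments, by the same estimate of the worth of a fragment. No fold change is given for it. Lpar5, the remaining LPA receptor, was 0.072 FPKM in WT cells and listed at 0 in KO cells. The sum over the LPA receptors was 27.7 FPKM in WT cells and 35.9 FPKM in KO cells. Lpar1 supplied 71.1% of it in the first and 85.5% in the second, and Lpar2 supplied 11.3% and 3.83%.

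F2r, the thrombin receptor also known as PAR1, had a ratio of 1.67 and a log2 fold change of 0.73. A larger log2 fold change was found for 5.11% of all genes. F2r held 99.5% of the summed level of the protease-activated receptors in both libraries. F2rl2, a thrombin receptor of low level here, was 0.374 FPKM in WT cells and 0.71 FPKM in KO cells, F2rl3 was 0.084 and 0.095 FPKM, and F2rl1 was listed at 0 in both.

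Ednra was 0.093 FPKM in WT cells and 0.059 FPKM in KO cells, by the same estimate about 18.7 and 9.88 fragments. The other endothelin receptor, Ednrb, was listed at 0 in both. Endothelin receptor RNA was thus close to absent from both libraries, and a difference between them was not readable at this level. Of the 7 other receptors of these families, 0 were past the filter, with levels of at most 0.374 FPKM in WT cells and 0.71 FPKM in KO cells.

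**Figure D3:**
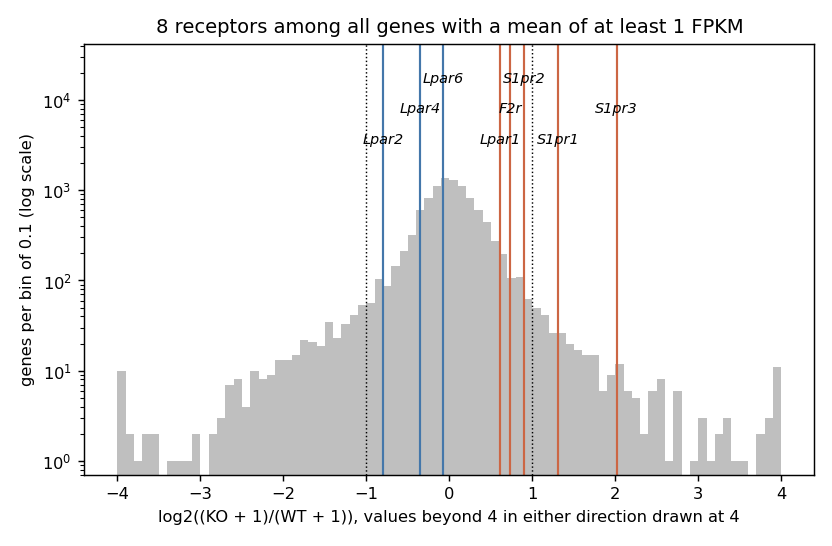
The grey histogram gives the log2 fold change of the 10542 genes past the filter, in bins of 0.1 with a logarithmic count axis, dotted lines mark the 2-fold limits, and a coloured line marks each of the 8 receptors past the filter. S1pr3 at 2.01 and S1pr1 at 1.31 lie beyond the upper limit, and Lpar2 at -0.80 is the lowest receptor.

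The receptor genes are spread over the genome, here GRCm39 with the GENCODE vM39 annotation. S1pr3 and F2r are on chromosome 13, from 51561702 to 51576833 and from 95737382 to 95755177. S1pr1, from 115504071 to 115508721, and Lpar3, from 145926691 to 145991969, are on chromosome 3. Lpar2, from 70275079 to 70283752, and Ednra, from 78386590 to 78451552, are on chromosome 8. S1pr2 lies on chromosome 9 from 20873657 to 20914139, Lpar1 on chromosome 4 from 58435250 to 58554635, and Lpar4 on chromosome X from 105964206 to 105977506. Lpar6 has a single exon on chromosome 14, from 73475335 to 73480734, inside the span of Rb1 and on the opposite strand. Rb1 was 7.79 FPKM in WT cells and 7.89 FPKM in KO cells. S1pr2 overlaps the first bases of Mrpl4, a gene of a mitochondrial ribosomal protein on the opposite strand, which was 62.4 and 75.9 FPKM. Noncoding genes on the opposite strand also overlap S1pr1, S1pr2, S1pr3 and Ednra. On its own strand, Lpar1 contains the microRNA gene Mir3095 and the processed pseudogene Gm12577. Whether reads were counted by strand is not given in the sources used here, so reads of such partners may be shared.

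Each receptor was set beside its neighbours, meaning genes that met the filter and lay up to 5 Mb away in either direction. S1pr2 was the receptor whose neighbours stood highest. Their median log2 fold change was 0.30 over 58 genes, 51 of them with a higher value in KO cells, and S1pr2 was 0.59 above that median. S1pr1 had 16 neighbours with a median of 0.19 and stood 1.12 above it. S1pr3 had 63 neighbours with a median of -0.082 and stood 2.10 above it, so its difference was as large beside its neighbours as without them. For F2r and Lpar1 the medians were 0.088 and 0.055, and the receptors stood 0.64 and 0.56 above them. Lpar2 was at -0.78 once the median of its neighbours, -0.017, was subtracted. Lpar4 was at -0.42 and Lpar6 at -0.041 after the same subtraction.

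**Figure D4:**
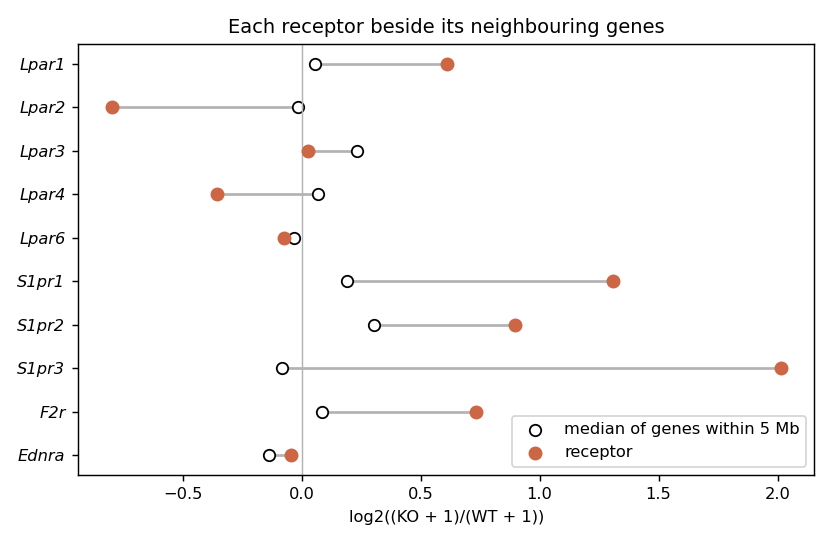
For each of the 10 receptors on the vertical axis, the filled point gives its log2 fold change and the open point the median log2 fold change of genes past the filter within 5 Mb. The open points lie between -0.14 and 0.30, and S1pr3, S1pr1, F2r, S1pr2 and Lpar1 lie to the right of theirs while Lpar2 and Lpar4 lie to the left.

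Promoter windows of 4 receptors are shown because they belong to the S1P receptors with an entry, S1pr3 and S1pr2, to the receptor with the lowest fold change, Lpar2, and to the most abundant receptor, F2r. Each is the 250 bases before the transcription start in RefSeq on GRCm38.p6, read 5′ to 3′ on the strand of the gene. Of the 10 receptors 9 had an entry in the promoter table, S1pr1 being the other. Capitals mark letters found on either strand for AP-1 (TGANTCA), the cyclic AMP response element CRE (TGACGTCA), the GC box (GGGCGG), an E-box bound by MyoD (CAGCTG), the TEAD motif (GGAATG) and the CArG box of SRF. None of these matches overlap each other.
S1pr3, chr13:51408368-51408617, plus strand: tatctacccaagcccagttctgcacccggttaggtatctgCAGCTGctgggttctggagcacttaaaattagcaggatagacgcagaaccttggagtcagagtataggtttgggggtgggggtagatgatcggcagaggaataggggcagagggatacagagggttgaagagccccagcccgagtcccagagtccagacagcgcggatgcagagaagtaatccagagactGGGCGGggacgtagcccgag
S1pr2, chr9:20976794-20977043, minus strand: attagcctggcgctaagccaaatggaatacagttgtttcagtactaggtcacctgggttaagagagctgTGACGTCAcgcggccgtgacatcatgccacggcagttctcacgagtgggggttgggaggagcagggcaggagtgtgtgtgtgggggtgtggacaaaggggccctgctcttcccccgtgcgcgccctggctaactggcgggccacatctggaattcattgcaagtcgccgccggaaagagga
F2r, chr13:95618467-95618716, minus strand: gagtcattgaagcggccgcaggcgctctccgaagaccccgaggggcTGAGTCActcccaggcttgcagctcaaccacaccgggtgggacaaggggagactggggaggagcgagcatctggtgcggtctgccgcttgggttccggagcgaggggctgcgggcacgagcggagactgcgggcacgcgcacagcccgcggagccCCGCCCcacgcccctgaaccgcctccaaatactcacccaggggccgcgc
Lpar2, chr8:69822315-69822564, plus strand: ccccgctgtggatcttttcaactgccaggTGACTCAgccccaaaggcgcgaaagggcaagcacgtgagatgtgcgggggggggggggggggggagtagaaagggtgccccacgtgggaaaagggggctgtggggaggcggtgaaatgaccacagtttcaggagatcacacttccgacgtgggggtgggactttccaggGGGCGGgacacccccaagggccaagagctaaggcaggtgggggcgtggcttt

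The letters differed between these windows. S1pr3 held a CAGCTG E-box, which 13.0% of all 32851 windows of this length hold, and a GC box, which 32.7% hold. S1pr2 held the CRE palindrome, found in 1.55% of windows, and no GC box. F2r and Lpar2, whose values differed in opposite directions, each held an AP-1 match, found in 6.75% of windows, and a GC box. Among the windows not shown, that of Lpar6 held an E-box and the TEAD letters, which 12.6% of windows hold, those of Lpar3 and Lpar4 and 2 of 3 windows of Lpar1 held GC boxes, and that of Ednra held none of the letters searched. The CArG box, found in 1.47% of windows, was in none of the windows of the 9 receptors. A match of letters is a description of the sequence and not a sign that a factor binds there.

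Genes that supply the ligands were read next. Of 18 genes that make, export or break down LPA and S1P, 9 were past the filter, 3 with a higher value in KO cells and 6 with a lower one. Among these 0 were past 2-fold in either direction, and the median was -0.026. The highest of them was the lipid phosphatase Plpp2, at 104 FPKM in WT cells and 135 FPKM in KO cells. Sphk1, a kinase that makes S1P, is named after its values were seen, and was 17.2 and 9.47 FPKM, a log2 fold change of -0.80. Enpp2, the secreted enzyme autotaxin that makes LPA, likewise named afterwards, was below the filter at 0.998 and 0.919 FPKM. Of 14 genes of thrombin, its activation and its inhibition, 5 were past the filter, 1 with a higher and 4 with a lower value in KO cells, 0 past 2-fold and a median of -0.38. The highest was F3, tissue factor, at 71.3 and 59.4 FPKM. Thrombin itself, F2, was 0.034 FPKM in WT cells and listed at 0 in KO cells, so the RNA of the receptor was abundant and that of its protease was near 0.

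On the endothelin side, 2 of 7 genes were past the filter and 1 was more than 2-fold lower. This was Ece1, the protease that cuts big endothelin to its active form, at 81.5 FPKM in WT cells and 26.1 FPKM in KO cells, a log2 fold change of -1.60. Edn1, the gene of endothelin-1, was below the filter at 0.49 and 1.34 FPKM. Both endothelin receptors, as given above, were at or near 0 in these cells.

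Downstream of the receptors, the G protein alpha subunits had a median log2 fold change of 0.11 over 8 of 13 genes, with 0 past 2-fold. Gnas, the stimulatory subunit, was the highest at 414 FPKM in WT cells and 369 FPKM in KO cells. The following subunits are named for the receptors they serve, after their values were seen. Gna12 was 20.9 and 31.2 FPKM, Gna13 29.2 and 28.9 FPKM, Gnai2 268 and 252 FPKM, and Gnaq 13.6 and 21.0 FPKM. Gna11, of the Gq class like Gnaq, was 44.7 and 68.2 FPKM. Gnao1, grouped with the Gi class, was 50.6 and 27.5 FPKM, a log2 fold change of -0.86. Plcb1, a phospholipase C that Gq activates, likewise named afterwards, was 0.672 FPKM in WT cells and 4.79 FPKM in KO cells, a log2 fold change of 1.79. Its relatives, also named afterwards, did not share this difference. Plcb3, the most abundant, was 27.1 and 20.0 FPKM, a log2 fold change of -0.42. Plcb4 was 8.95 and 11.5 FPKM, a log2 fold change of 0.33, and Plcb2 was 0.007 FPKM and listed at 0. Subunits of the Gi, Gq and G12/13 classes were therefore present in both libraries.

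Of 26 receptor kinases, arrestins and RGS proteins, which shorten G protein signals, 13 were past the filter with a median of 0.037. Rgs17 was more than 2-fold higher, at 0.056 and 2.09 FPKM, and Rgs16 was more than 2-fold lower, at 6.79 and 1.15 FPKM. The receptor kinase Grk6 was the highest, at 50.0 and 44.6 FPKM.

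**Figure D5:**
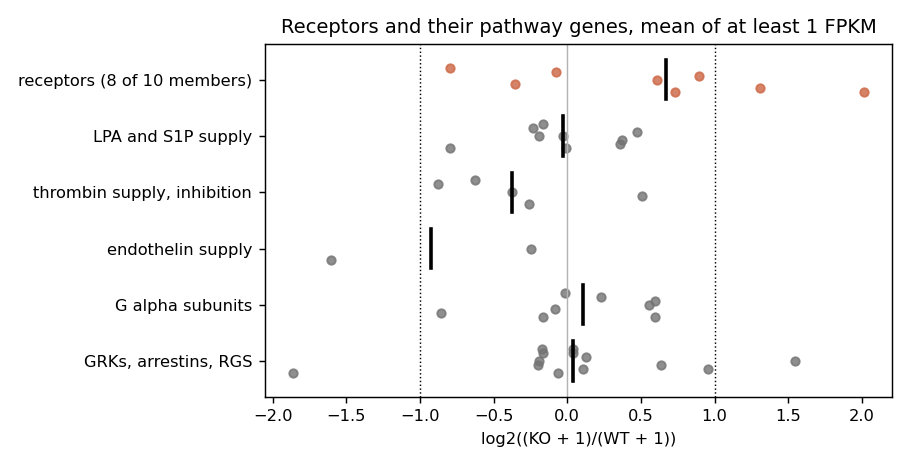
Each point is a gene past the filter, placed by its log2 fold change on the horizontal axis and by its list on the vertical axis, with black bars for the medians and dotted lines for the 2-fold limits. The receptor median of 0.67 lies above those of the other lists drawn, which run from -0.92 for 2 endothelin supply genes to 0.11 for the G protein alpha subunits.

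Markers of cell types were read beside these values. The 6 endothelial markers, a cell type known for S1pr1, summed to 0.019 FPKM in WT cells and 0.028 FPKM in KO cells, with Cdh5, Kdr and Emcn at 0 in both. Of the 6 macrophage markers 4 were at 0 in both, Ptprc, Adgre1, Itgam and Tyrobp, and the list summed to 2.90 and 1.14 FPKM, nearly all of it Cd68. Among 6 myoblast markers that met the filter 4 were more than 2-fold lower and 1 higher, and the 8 listed summed to 246 and 54.1 FPKM. Des was 97.6 and 3.84 FPKM, Cdh15 16.6 and 0.701 FPKM, Chrna1 15.3 and 0.917 FPKM, and Myf5, the higher one, 9.14 and 20.3 FPKM. Myod1 was 60.0 FPKM in WT cells and listed at 0 in KO cells, and Pax7 was listed at 0 in both. Itga7 was 47.4 and 28.4 FPKM, a log2 fold change of -0.72. Above 1 FPKM, the label myoblast in KO cells therefore rested on Myf5, Itga7 and low Des, with Itga7 and Des lower than in WT cells. Of 5 fibroblast and mesenchymal markers past the filter 2 were higher, Col1a1 at 9.66 and 273 FPKM and Postn at 0.44 and 33.9 FPKM. In the same list 1 was lower, Cd34 at 136 and 10.6 FPKM. The 8 listed summed to 356 and 478 FPKM, with Lum at 0 in both and Ly6a highest by mean at 198 and 146 FPKM. Among 3 smooth muscle and pericyte markers past the filter, 0 stood over 2-fold higher and 1, Des, lay over 2-fold lower, and the 7 listed summed to 172 and 103 FPKM. Des is also counted among the myoblast markers, and the lower sum in KO cells is due to it. Without Des, the remaining markers of this list summed to a higher value in KO cells than in WT cells. In this list Pdgfrb, the highest by mean, was 54.5 and 80.2 FPKM, Lmod1 was below the filter at 0.086 and 1.49 FPKM, and Myh11 was 0.0090 and 0.020 FPKM. Other contractile genes of smooth muscle, outside the list and named after their values were seen, were mixed. More than 2-fold higher were Acta2 at 213 FPKM in WT cells and 544 FPKM in KO cells, Tagln at 20.3 and 54.5 FPKM, and Myl9 at 14.4 and 30.4 FPKM. Tpm1, at 284 and 546 FPKM, had a log2 fold change of 0.94, short of the limit. Cnn1 was below the filter at 0.043 and 0.157 FPKM. The part of the myoblast, mesenchymal and contractile shifts in the receptor values was not tested. In bulk RNA, fewer cells of a type and less RNA per cell cannot be told apart.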

How the data were processed

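RNA from WT and Gne KO C2C12 cells was sequenced, 1 library each. Values deposited by the authors are listed by symbol and were read as FPKM, because the column totals differ and low values step with transcript length. TPM values, which the methods name, could look the same if cut to these genes. The submitters' processing notes name Trim Galore 0.6.6, STAR 2.7.9a, RSEM 1.3.3 and GRCm38, and the methods name GRCm39 and RSEM with expected counts and TPM as its output. Neither says which output the deposited values are. The labels name an Illumina stranded kit and the methods an MGI directional kit. Without read numbers, intervals for counting error were not computed.

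There were 21853 rows, and where a symbol occurred more than once (24 rows) the entry with the larger mean stayed. Fold changes used a pseudocount of 1 and a filter of a mean of at least 1 FPKM. No statistical test between the lines was run. The members and lists were chosen with earlier results of these data known. All members were named, and from each pathway list reported the genes past 2-fold, largest first, and the one with the highest mean. Genes named outside this rule are marked. Positions came from GENCODE vM39 by symbol, for 10160 of the 10542 genes past the filter. What 1 fragment is worth was estimated as the median of value times length in kb, less 200 bases, over genes with a single transcript whose product was under 0.06, limits set after the values were seen. It was 0.0348 in WT cells, over 33 genes, and 0.0417 in KO cells, over 50 genes, and depends on the transcript lengths assumed. Motif letters were fixed after the promoter table had been opened. The size rule was tested on simulated data. Beyond these, 2 lists of genes downstream of the receptors are not reported here. Of their 16 and 16 genes past the filter, 1 and 4 were more than 2-fold higher in KO cells and 0 lower, so the downstream genes described are not all of those examined. Alternatives were other pseudocounts, filters and scalings and subtraction of neighbouring genes. Python 3.11.15, numpy 2.4.6, pandas 2.3.3 and matplotlib 3.10.9 were used.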

Additional observations from a re-analysis of the deposited data

How the results depend on the processing

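Counts were taken as moved beyond 1.5 times, and the median and single receptors when they shifted by more than the interquartile range of all genes, 0.44. The 2 receptors more than 2-fold higher became 1 with a pseudocount of 5, where S1pr3 was at 1.08 and S1pr1 at 0.90, and 1 at a minimum mean of 5 FPKM, where S1pr3 no longer passed and 4 receptors were used. With a pseudocount of 0.1 the number more than 2-fold lower went from 0 to 1, which was Lpar2 at -1.13. With a pseudocount of 5 Lpar2 moved the other way, to -0.35. Among all genes the 299 higher and 362 lower were 102 and 176 at a pseudocount of 5. At a minimum mean of 5 FPKM they were 145 and 221. The receptor median stayed between 0.32, with no filter, and 0.81, at a minimum mean of 5 FPKM. S1pr3 was at 2.57 with a pseudocount of 0.1. Of 50 values of single receptors under the alternatives, 2 changed sign, those of Lpar3 and Ednra after subtraction of their neighbours, and both receptors are near 0. Scaling by the median of ratios divided the KO values by 1.00 and moved no count of receptors.

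There was no replicate to leave out. No paired analysis was possible because each line has a single library and nothing was tested.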
